A study of Mus musculus with 11 samples.

Results

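The 42 genes described here are 31 immediate early genes and their early feedback partners and 11 heat shock proteins and co-chaperones. They were chosen by name, and each was represented by the probe with the highest mean signal over the 11 arrays of the non-normalized table. A gene name tied 1 or more probes to 41 of the 42, out of 19057 genes with a named probe in the whole series, and no probe used here carried the name of Hsp90ab1. After a filter that asked for detection on at least 2 arrays, 37 members stood among 11367 tested genes, namely 29 immediate early and 8 heat shock genes. Hspa1a, Nr4a1, Ier5 and Hspb1 did not pass. Of the 37, 28 were detected in all 4 groups, 6 in 3 and 3 in 2. Btg2 and Hspa1b would not have passed without the CD31+ B220+ group described below. Counts of members highest or called higher in that group include them where this held, so those counts are not fully independent of the filter.

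RNA came from cells that had been sorted by flow cytometry out of the endosteal region of C57BL/6 mouse marrow, the zone next to the bone surface, and was measured on Illumina MouseWG-6 v2 bead arrays. The titles give 4 groups: AGE-positive CD31+ B220+ cells (n = 3), AGE-positive CD31+ B220- cells (n = 3), AGE-positive CD31- B220- cells (n = 3) and HSC, the haemopoietic stem cells sorted as LSK CD150+ CD48- (n = 2). FITC-AGE is a fluorescein-tagged reagent that the labels name without describing, and the labels call the 3 AGE-positive fractions scavenger endothelial cells (SEC). For CD31- B220- samples the source name starts with HSC, which neither the title nor the cell type does; groups follow the titles. The labels give no treatment, age or genotype beyond the strain, state that some RNA samples were pooled without saying which, and do not say that replicates came from separate animals, so p-values measure the spread between these samples, which may be technical. No group was measured without sorting, so a response to isolation and a state held in the marrow cannot be told apart for any of these genes.

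Immediate early genes are transcribed within minutes of a stimulus without new protein synthesis. Signals through MAP kinases act on serum response factor at CArG boxes and on CREB, and signals through NF-kB act on its own sites. The first products are transcription factors such as Fos, Jun and Egr1, followed by feedback genes that remove phosphates from MAP kinases, destabilise short-lived mRNAs or hold back NF-kB. Heat shock genes are driven by Hsf1 at heat shock elements when proteins unfold, and several of the chaperones are also abundant in unstressed cells. Both sets are known to respond to tissue dissociation and cell sorting.

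Before normalization the HSC arrays were brighter than the others, with an upper quartile of probe signal of 376.8 and 450.5 against 145.9 to 211.6 on the 9 arrays of the fractions. Each array detected 27 to 35 of the 41 members with a probe. The difference between a fraction and HSC coincides with this difference in brightness, and they cannot be told apart. Scaling the arrays to a common median, in place of making their distributions equal, put the median log2 difference of all tested genes at -1.22 for CD31+ B220+ minus HSC, -1.14 for CD31+ B220- minus HSC and -1.08 for CD31- B220- minus HSC. Between fractions that median lay at -0.0698 to 0.0449. All log2 signals below come from the quantile-normalized arrays, and directions against HSC that turn under median scaling are named where they occur.

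Markers of other cell types moved with the groups. The summed linear signal of 6 B lineage markers was 40090 to 41030 in CD31+ B220+ cells, 6515 to 12800 in CD31+ B220- cells, 435 to 683 in CD31- B220- cells and 736 to 822 in HSC. The 8 neutrophil markers summed to 1220 to 6041, 59850 to 67970, 19560 to 50800 and 6310 to 6657 in the same order of groups, and the macrophage and monocyte markers to 467 to 590, 18250 to 21860, 12030 to 21160 and 370 to 407. Erythroid markers reached 21500 to 31410 in CD31- B220- cells, against 207 to 394, 708 to 1000 and 2729 to 3208 in CD31+ B220+ cells, CD31+ B220- cells and HSC. T and NK markers (5 with a probe) summed to 205 to 259, 2407 to 4715, 178 to 625 and 349 to 534 in the same order, and 8 stromal and osteoblast markers to 230 to 390, 281 to 642, 3674 to 6449 and 441 to 821. The 7 plasmacytoid dendritic cell markers summed to 20590 to 21240, 3798 to 5193, 1617 to 2384 and 2629 to 2791, again in that order, and of these Ccr9 was detected on no array. Tcf4, Irf8, Spib and Ly6d had their highest mean in the first group, but Siglech and Bst2 did not. Mean log2 signals over the groups were 8.30, 8.53, 6.87 and 5.68 for Siglech, and 7.39, 7.93, 7.41 and 8.03 for Bst2. The sum therefore does not show which group held the most plasmacytoid dendritic cells. Of 12 endothelial markers, 4 to 5 were detected on each CD31+ B220+ array, 10 to 11 on each CD31+ B220- array, 4 to 6 on each CD31- B220- array and 9 on each HSC array. Both CD31+ B220+ and CD31- B220- cells, which the labels call endothelial, had Stab1 and Egfl7 on every array and Tek, Tie1, Emcn and Stab2 on none. Pecam1 was detected on all CD31+ B220+ arrays and on 1 of 3 CD31- B220- arrays, and Flt1 and Eng on no CD31+ B220+ array and on all CD31- B220- arrays. Kit, Slamf1, Mecom, Procr, Meis1 and Fgd5 were detected on both HSC arrays, and Hlf on neither. The part of these mixtures in the results below was not tested, and in bulk RNA fewer cells of a type and less RNA per cell cannot be told apart.

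Across the 4 groups, 32 of the 37 tested members differed by limma's F-test at an adjusted p under 0.05, against 70.0% of all tested genes. The 5 that did not were Junb, Klf6, Hspa8, Dnaja1 and Hspe1, with adjusted p from 0.0659 to 0.475. Among the 29 immediate early members, the highest group mean lay in CD31+ B220+ cells for 17, in CD31+ B220- cells for 3, in CD31- B220- cells for 1 and in HSC for 8. The lowest mean lay in CD31- B220- cells for 15. In CD31+ B220+ cells lay the lowest mean of 5 of 8 heat shock members and of 7 of the 29 immediate early members. Those 5 include Dnaja1 and Hspe1, which did not differ by the F-test. Such counts were not made for all tested genes.

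**Figure D1:**
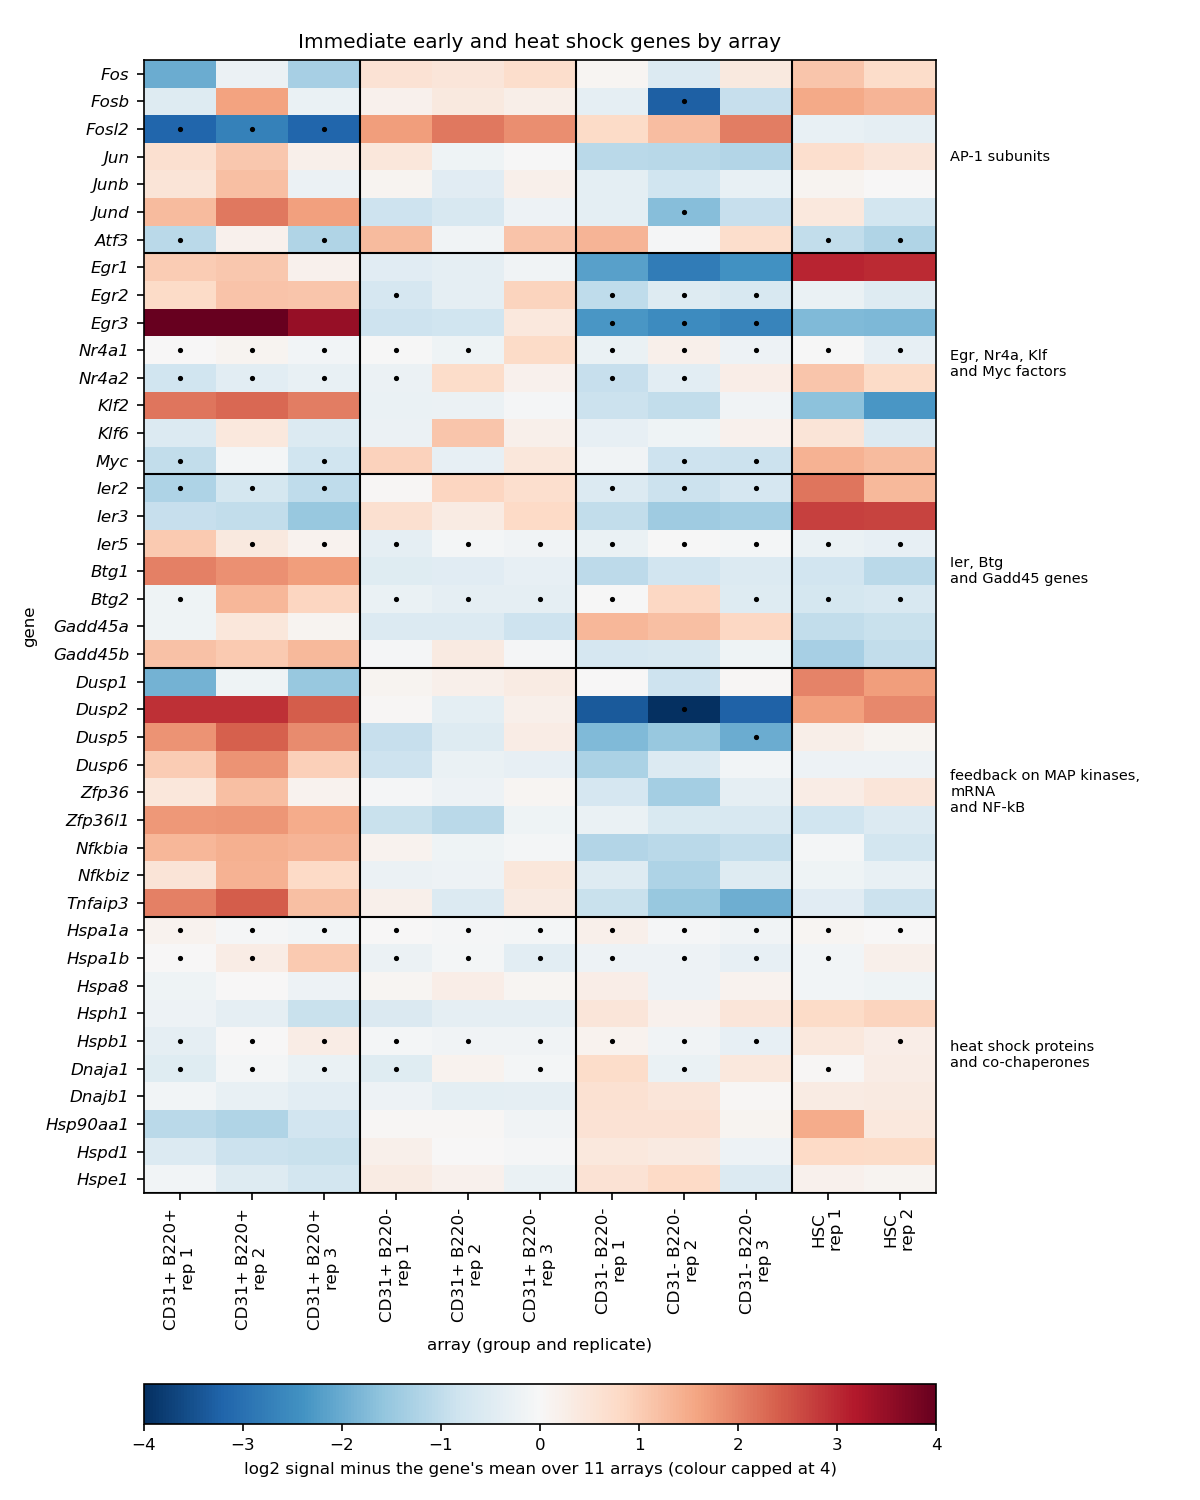
Log2 signal of the 41 members with a named probe (rows, by role) on the 11 arrays (columns, by group), shown as the difference from each gene's mean over all arrays; colours end at 4 log2 units in either direction and black dots mark values that were not detected. Egr3, Dusp2, Klf2 and Btg1 are brightest in the CD31+ B220+ columns, and Fosl2 is not detected there.

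Compared between fractions, members were called more often than genes at large where CD31+ B220+ cells were involved. In CD31+ B220+ against CD31- B220- cells 19 members were higher and 8 lower, 73.0% of those tested, against 45.5% of all tested genes (22.7% higher, 22.9% lower). Against CD31+ B220- cells 17 were higher and 9 lower, or 70.3% against 36.3% (17.3% higher, 19% lower). Between CD31+ B220- and CD31- B220- cells 11 were higher and 3 lower, or 37.8% against 29.3% (16.8% higher, 12.6% lower). Without CD31+ B220+ replicate 2, which stood apart as described in the last paragraph, the first pair of counts became 17 and 9 and the second 14 and 9.

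The 3 comparisons with HSC share both HSC arrays. In CD31+ B220+ cells 14 members were higher and 12 lower than in HSC, 70.3% of those tested against 46.4% of all tested genes (19.1% higher, 27.3% lower), and under median scaling the split was 7 and 19. In CD31+ B220- cells 5 were higher and 10 lower, 40.5% against 43.7% (18.1% higher, 25.6% lower), which is near the background, and the split under median scaling was 1 and 25. In CD31- B220- cells 5 were higher and 13 lower, 48.6% against 51.0% (21% higher, 29.9% lower), again near the background, and 3 and 26 under median scaling. For all tested genes the split moved likewise, for instance to 757 higher and 7723 lower in CD31+ B220+ cells, against 2169 and 3102 with quantile normalization. After the shift of all genes was subtracted from the median-scaled values, 26 of 26, 15 of 15 and 18 of 18 called members had the sign they had with quantile normalization. The subtraction sets the median gene to no difference, as quantile normalization nearly does. It is therefore no independent check of a direction against HSC.

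AP-1 is a dimer of Fos, Jun and Atf family proteins. Of its 7 subunits here, 4 were higher and 3 lower in CD31+ B220+ than in CD31- B220- cells, 1 was higher and 3 lower than in CD31+ B220- cells, and only Jun was called between CD31+ B220- and CD31- B220- cells, where it was higher. These calls were 100%, 57.1% and 14.3% of the 7, against 45.5%, 36.3% and 29.3% of all tested genes. Against HSC the counts higher and lower were 1 and 2 in CD31+ B220+ cells, 2 and 0 in CD31+ B220- cells and 2 and 2 in CD31- B220- cells, or 42.9%, 28.6% and 57.1% of the 7, against 46.4%, 43.7% and 51.0% of all tested genes. Under median scaling they were 0 and 5, 1 and 4, and 1 and 5.

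Fosl2, which encodes the late-acting Fos family member Fra-2, had the largest differences between groups of the 7 subunits. Its log2 signals were 4.83, 5.31 and 4.83 in CD31+ B220+ cells, where no array detected it. They were 9.69, 10.11 and 9.87 in CD31+ B220- cells, 8.76, 9.23 and 10.06 in CD31- B220- cells, and 7.71 and 7.64 in HSC. No array of CD31+ B220+ cells overlapped another group. Fosl2 was at least 23.1-fold lower in CD31+ B220+ than in CD31+ B220- cells (adjusted p = 2.18e-08), at least 15.9-fold lower than in CD31- B220- cells (adjusted p = 2.72e-08) and at least 4.97-fold lower than in HSC (adjusted p = 1.11e-05). The CD31+ B220- and CD31- B220- cells exceeded HSC by 2.22 (adjusted p = 8.31e-05) and 1.68 (adjusted p = 0.000558) on the log2 scale, but by 0.73 (adjusted p = 0.0594) and 0.25 (adjusted p = 0.519) under median scaling. The other Fosl2 probes were detected on no array, so all these differences rest on the probe chosen.

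Fos, the founding member of the family, had log2 signals of 9.75, 11.49 and 10.41 in CD31+ B220+ cells, 12.32, 12.21 and 12.45 in CD31+ B220- cells, 11.82, 11.19 and 12.13 in CD31- B220- cells, and 12.84 and 12.47 in HSC. All CD31+ B220+ arrays lay below every CD31+ B220- and HSC array, while their replicate 2 fell within the CD31- B220- range. Fos was lower in CD31+ B220+ cells compared with HSC (log2 difference -2.10, 95% interval -2.97 to -1.23; adjusted p = 0.000793) and than in CD31+ B220- cells (-1.78, adjusted p = 0.00163). The difference from CD31- B220- cells, -1.16 (adjusted p = 0.017), lost its call when any 1 of 4 arrays was left out (adjusted p = 0.0502 to 0.0851). Fosb, a close relative that shares targets with Fos, had log2 signals of 7.65, 9.79 and 7.90 in CD31+ B220+ cells, 8.33, 8.57 and 8.41 in CD31+ B220- cells, 7.80, 4.89 and 7.25 in CD31- B220- cells, and 9.67 and 9.53 in HSC. Its replicate 2 was the high array in CD31+ B220+ cells and the only array without detection in CD31- B220- cells. The 1.80 higher log2 level in CD31+ B220+ than in CD31- B220- cells (adjusted p = 0.034) rested on these arrays, at 1.14 (adjusted p = 0.165) without the first and 0.92 (adjusted p = 0.156) without the second.

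Jun, the partner of Fos, had log2 signals of 7.98, 8.41 and 7.53 in CD31+ B220+ cells, 7.79, 7.15 and 7.31 in CD31+ B220- cells, 6.26, 6.24 and 6.16 in CD31- B220- cells, and 8.02 and 7.82 in HSC. The CD31- B220- arrays were the lowest and overlapped no other group. Jun was higher by 1.75 in CD31+ B220+ (adjusted p = 3.17e-05) and by 1.20 in CD31+ B220- (adjusted p = 0.00154) than in CD31- B220- cells. Its log2 difference between CD31- B220- cells and HSC was -1.70 (adjusted p = 0.00011), and the difference of 0.05 between CD31+ B220+ cells and HSC (95% interval -0.51 to 0.61; adjusted p = 0.896) became -1.60 under median scaling. Jund, a Jun family member often present in resting cells, had log2 signals of 8.03, 8.89 and 8.41 in CD31+ B220+ cells, 5.94, 6.12 and 6.58 in CD31+ B220- cells, 6.39, 5.05 and 5.85 in CD31- B220- cells, and 7.19 and 6.02 in HSC. The CD31+ B220+ arrays stood above all others, and the second CD31- B220- array did not detect the gene. The log2 difference of CD31+ B220+ cells was 2.23 from CD31+ B220- cells (adjusted p = 0.000329), 2.68 from CD31- B220- cells (adjusted p = 3.93e-05) and 1.83 from HSC (adjusted p = 0.00235), the last at 0.30 (adjusted p = 0.484) under median scaling.

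Junb, a Jun family member that can restrain Jun, had log2 signals of 10.71, 11.41 and 9.96 in CD31+ B220+ cells, 10.32, 9.75 and 10.40 in CD31+ B220- cells, 9.81, 9.39 and 9.89 in CD31- B220- cells, and 10.29 and 10.19 in HSC. The groups lay close together, and the F-test over the 4 groups gave an adjusted p of 0.0659. A difference of 1.00 between CD31+ B220+ and CD31- B220- cells passed (adjusted p = 0.0175), but was at 0.64 (adjusted p = 0.0907) without CD31+ B220+ replicate 2. Atf3, a stress-induced factor of the Atf family, had log2 signals of 4.62, 5.88 and 4.51 in CD31+ B220+ cells, 6.98, 5.57 and 6.86 in CD31+ B220- cells, 7.08, 5.68 and 6.43 in CD31- B220- cells, and 4.72 and 4.51 in HSC. It was detected on every CD31+ B220- and CD31- B220- array, on replicate 2 of the CD31+ B220+ cells and on neither HSC array. Atf3 was at least 2.47-fold higher in CD31+ B220- cells (adjusted p = 0.00809) and at least 2.34-fold higher in CD31- B220- cells (adjusted p = 0.00845) than in HSC. Both calls ended without HSC replicate 2 (adjusted p = 0.0619 and 0.0632). Its lower level in CD31+ B220+ than in CD31+ B220- cells (-1.47, adjusted p = 0.0186) and CD31- B220- cells (-1.39, adjusted p = 0.0194) lost its call without any 1 of 4 arrays in each comparison (adjusted p up to 0.0891).

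**Figure D2:**
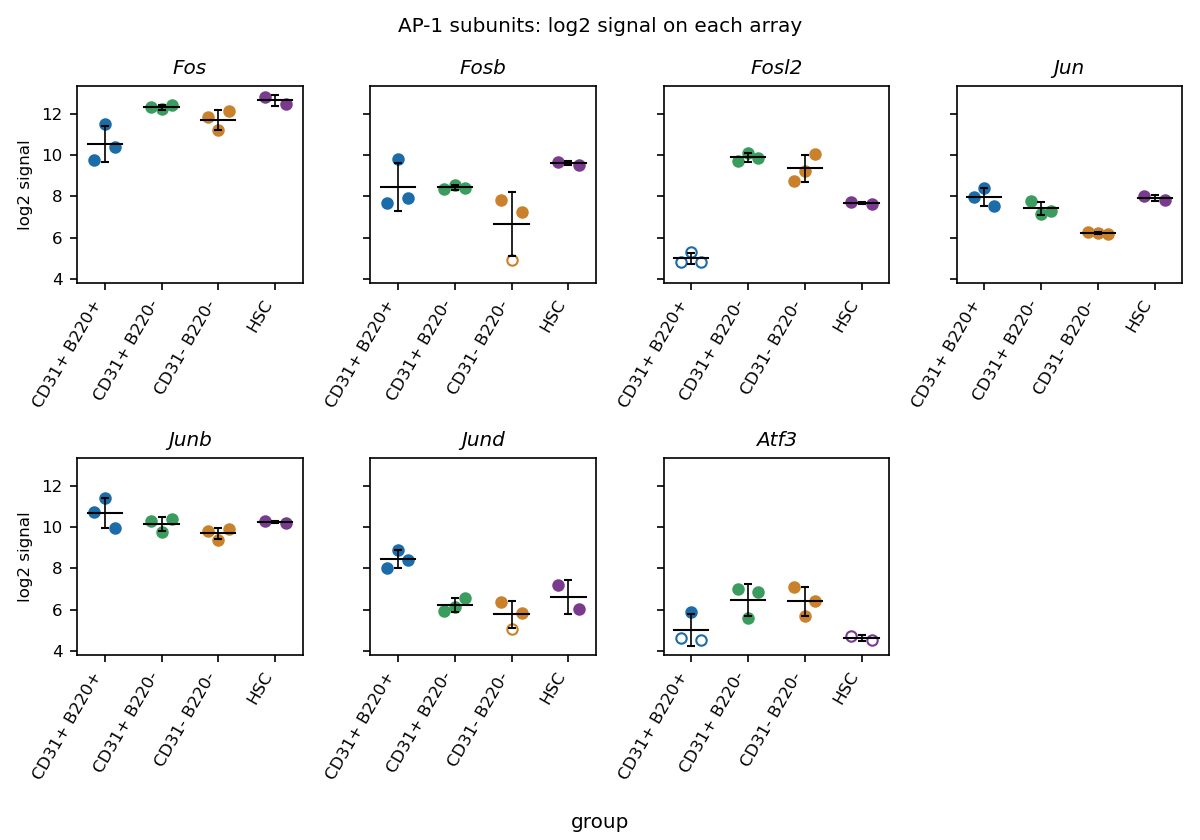
Log2 signal of the 7 AP-1 subunits on each array, by group; filled points are detected, open points are not, bars are group means and error lines are the SD (n = 3, or 2 for HSC). Fosl2 is undetected on all CD31+ B220+ arrays, Jund is highest there, and Atf3 is undetected on both HSC arrays.

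Among the Egr, Nr4a, Klf and Myc factors, 4 of 7 tested members were higher and 1 lower in CD31+ B220+ than in CD31+ B220- cells, 4 were higher and 0 lower than in CD31- B220- cells, and 3 were higher and 0 lower in CD31+ B220- than in CD31- B220- cells. Egr1, Egr2, Egr3 and Klf2 were the 4 that were higher in CD31+ B220+ cells in both comparisons. Against HSC the counts higher and lower were 3 and 3 in CD31+ B220+ cells, 2 and 2 in CD31+ B220- cells and 1 and 3 in CD31- B220- cells, or 2 and 4, 0 and 3, and 0 and 6 under median scaling. The shares called between fractions were 71.4%, 57.1% and 42.9% of the 7, against 36.3%, 45.5% and 29.3% of all tested genes. Against HSC they were 85.7%, 57.1% and 57.1%, against 46.4%, 43.7% and 51.0%, the last near the background.

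Egr3, a zinc finger factor induced through serum response factor and by antigen receptors, had log2 signals of 11.70, 11.39 and 10.68 in CD31+ B220+ cells. Its values were 6.34, 6.39 and 7.60 in CD31+ B220- cells, 4.86, 4.67 and 4.53 in CD31- B220- cells, where it was not detected, and 5.43 and 5.39 in HSC. The 4 groups did not overlap. Egr3 was 57.6-fold higher in CD31+ B220+ cells compared with HSC (log2 difference 5.85, 95% interval 5.07 to 6.63; adjusted p = 2.71e-08), 22.3-fold higher than in CD31+ B220- cells (adjusted p = 1.95e-07) and at least 60.8-fold higher than in CD31- B220- cells (adjusted p = 2.29e-09). The excess of CD31+ B220- cells over HSC, 1.37 (adjusted p = 0.00788), was at 0.51 (adjusted p = 0.138) under median scaling and lost its call without either HSC array. A second Egr3 probe was detected on 2 arrays and gave -0.14 between CD31+ B220+ and CD31- B220- cells (adjusted p = 0.717).

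Egr1, the best known Egr factor, ran in another order, with log2 signals of 11.52, 11.58 and 10.68 in CD31+ B220+ cells, 10.05, 10.14 and 10.35 in CD31+ B220- cells, 8.32, 7.70 and 8.08 in CD31- B220- cells, and 13.54 and 13.46 in HSC. No groups overlapped. Egr1 was lower than in HSC in every fraction, by 4.73-fold in CD31+ B220+ cells (adjusted p = 1.81e-05), 9.99-fold in CD31+ B220- cells (adjusted p = 7.49e-07) and 44.2-fold in CD31- B220- cells (adjusted p = 5.96e-09). Between fractions it was 2.11-fold higher in CD31+ B220+ than in CD31+ B220- cells (adjusted p = 0.00362) and 4.42-fold higher in CD31+ B220- than in CD31- B220- cells (adjusted p = 1.89e-05). Egr2, which acts with Egr3 in lymphocytes, had log2 signals of 6.56, 6.96 and 6.93 in CD31+ B220+ cells, 5.15, 5.46 and 6.70 in CD31+ B220- cells, 4.79, 5.31 and 5.16 in CD31- B220- cells, and 5.56 and 5.30 in HSC. It was detected on 2 of 3 CD31+ B220- arrays, 1 of which lay within the CD31+ B220+ range, and on no CD31- B220- array. Egr2 was higher in CD31+ B220+ cells by 1.39 than in HSC (adjusted p = 0.00664), by 1.05 than in CD31+ B220- cells (adjusted p = 0.0218) and at least 2.8-fold than in CD31- B220- cells (adjusted p = 0.000587). The call against HSC ended under median scaling (0.37, adjusted p = 0.331) and without HSC replicate 2 (adjusted p = 0.0525), and that against CD31+ B220- cells ended without any 1 of 4 arrays (adjusted p = 0.0626 to 0.103).

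Klf2, a zinc finger factor that keeps lymphocytes quiescent and is induced by flow in endothelium, had log2 signals of 12.07, 12.23 and 11.95 in CD31+ B220+ cells, 9.64, 9.69 and 9.88 in CD31+ B220- cells, 9.05, 8.94 and 9.78 in CD31- B220- cells, and 8.26 and 7.58 in HSC. The CD31+ B220+ arrays were the highest and the HSC arrays the lowest. Klf2 was 17.9-fold higher in CD31+ B220+ cells compared with HSC (adjusted p = 4.44e-08) and 5.08-fold higher than in CD31+ B220- cells (adjusted p = 5.64e-06). The differences of 1.81 between CD31+ B220- cells and HSC (adjusted p = 0.000132) and of 1.34 between CD31- B220- cells and HSC (adjusted p = 0.00104) became 0.35 and -0.06 under median scaling. Klf6, a related factor, lay between 9.85 and 11.50 on all 11 arrays, its groups overlapped, and its F-test gave an adjusted p of 0.475.

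Myc, a growth factor-induced driver of proliferation, had log2 signals of 4.67, 5.58 and 4.85 in CD31+ B220+ cells, 6.57, 5.32 and 6.11 in CD31+ B220- cells, 5.51, 4.82 and 4.80 in CD31- B220- cells, and 7.03 and 6.90 in HSC. It was detected on all CD31+ B220- and HSC arrays and on 1 array of each other group. Myc was lower than in HSC in all 3 fractions, with log2 differences of -1.93 in CD31+ B220+ cells (adjusted p = 0.000663), -0.97 in CD31+ B220- cells (adjusted p = 0.0444) and -1.93 in CD31- B220- cells (adjusted p = 0.00058). The call in CD31+ B220- cells ended under 11 alternatives, among them each HSC array left out (adjusted p = 0.164 and 0.103). Nr4a2, a nuclear receptor of the Nr4a family, was detected on both HSC arrays (6.60 and 6.27), on 2 of 3 CD31+ B220- arrays, on 1 CD31- B220- array and on no CD31+ B220+ array, where it was at least 2.1-fold lower than in HSC (adjusted p = 0.00332). Its relative Nr4a1, a marker of recent antigen receptor signals, was detected on CD31+ B220- replicate 3 alone (5.53) and was not tested.

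**Figure D3:**
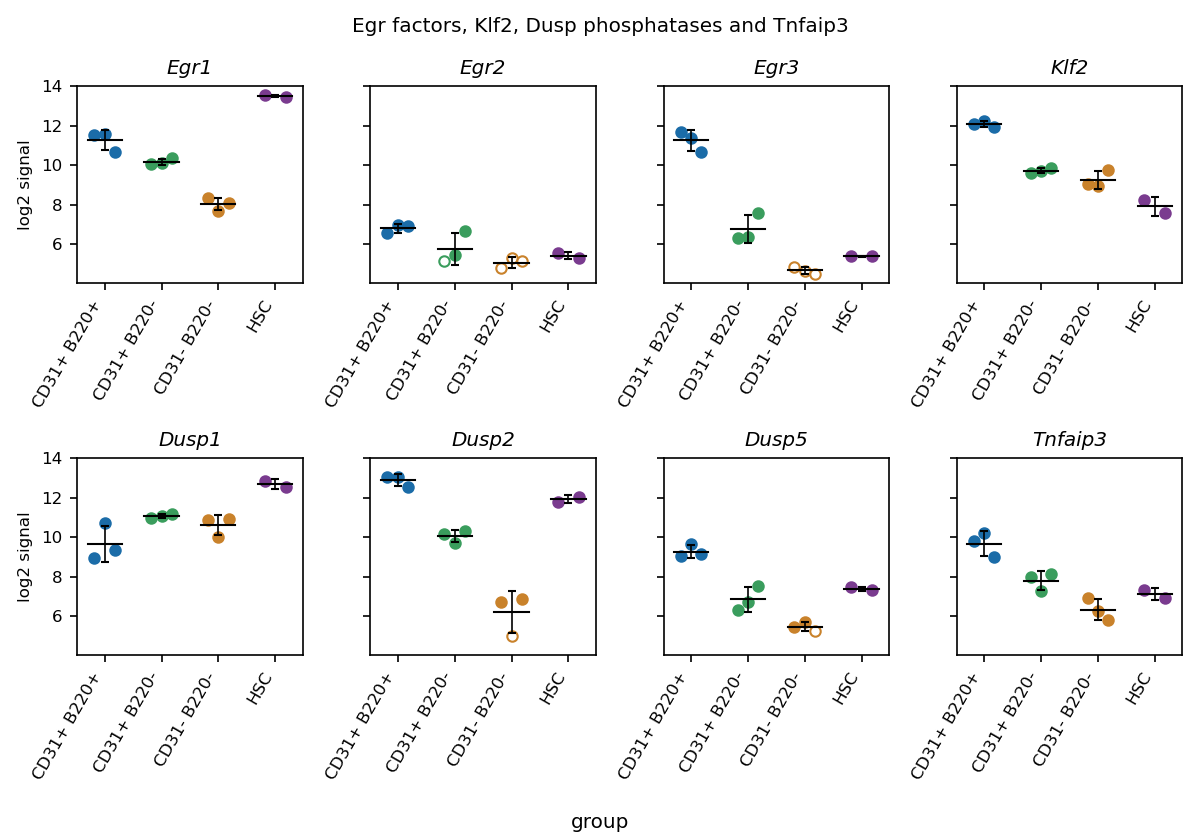
Log2 signal on each array for Egr1, Egr2, Egr3, Klf2, Dusp1, Dusp2, Dusp5 and Tnfaip3, by group; filled points are detected, open points are not, bars are group means and error lines the SD (n = 3, or 2 for HSC). Egr3 and Dusp2 step down from CD31+ B220+ to CD31+ B220- to CD31- B220- cells, and Egr1 is highest in HSC.

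The Ier, Btg and Gadd45 genes encode small regulators of growth arrest, survival and DNA damage responses. Of 6 tested, 4 were higher and 2 lower in CD31+ B220+ than in CD31+ B220- cells, 2 were higher and 1 lower than in CD31- B220- cells, and 3 were higher and 1 lower in CD31+ B220- than in CD31- B220- cells. The numbers called between fractions were 6, 3 and 4 of 6, against 36.3%, 45.5% and 29.3% of all tested genes, the second near the background. Against HSC the counts were 4 and 2, 1 and 2, and 2 and 2 in CD31+ B220+, CD31+ B220- and CD31- B220- cells, or 3 and 2, 0 and 3, and 2 and 3 under median scaling. With quantile normalization 6, 3 and 4 of 6 were called, against 46.4%, 43.7% and 51.0% of all tested genes, the second again near the background.

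Ier3, which modulates survival and ERK signalling, had log2 signals of 7.39, 7.35 and 6.81 in CD31+ B220+ cells, 8.96, 8.65 and 9.12 in CD31+ B220- cells, 7.34, 6.91 and 6.96 in CD31- B220- cells, and 11.05 and 11.03 in HSC. HSC were the highest and CD31+ B220- cells came next, with no overlap. Ier3 was 14.5-fold lower in CD31+ B220+ cells (adjusted p = 2.31e-08), 4.39-fold lower in CD31+ B220- cells (adjusted p = 9.87e-06) and 15.7-fold lower in CD31- B220- cells (adjusted p = 2.12e-08) than in HSC. Ier2, a nuclear immediate early protein, was not detected on any CD31+ B220+ or CD31- B220- array, had 5.82, 6.61 and 6.45 in CD31+ B220- cells, and 7.91 and 7.08 in HSC. It was at least 4.38-fold lower in CD31+ B220+ cells (adjusted p = 4.96e-06) and at least 4.47-fold lower in CD31- B220- cells (adjusted p = 1.42e-05) than in HSC, and also lower in CD31+ B220- cells (log2 difference -1.20, adjusted p = 0.00471, and 0.0903 without HSC replicate 1). Ier5, a related gene, was detected on CD31+ B220+ replicate 1 alone (5.93).

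Btg1, an antiproliferative factor of resting lymphocytes, had log2 signals of 13.95, 13.74 and 13.58 in CD31+ B220+ cells, 11.44, 11.45 and 11.59 in CD31+ B220- cells, 10.88, 11.14 and 11.37 in CD31- B220- cells, and 11.14 and 10.83 in HSC. The CD31+ B220+ arrays stood apart from all others. Btg1 was 6.81-fold higher in CD31+ B220+ cells compared with HSC (adjusted p = 1.79e-07), 4.8-fold higher than in CD31+ B220- cells (adjusted p = 6.86e-07) and 6.17-fold higher than in CD31- B220- cells (adjusted p = 7.4e-08). Its p53-induced relative Btg2 was detected on 2 of 3 CD31+ B220+ arrays, on 1 CD31- B220- array and on no CD31+ B220- or HSC array. It was at least 1.57-fold higher in CD31+ B220+ cells compared with HSC (adjusted p = 0.0142), a call that ended without CD31+ B220+ replicate 2 (adjusted p = 0.0561) and without either HSC array (adjusted p = 0.0746 and 0.0614). Btg2 passed the filter only through its CD31+ B220+ arrays, so this call is not independent of the filter.

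Gadd45a, a growth arrest gene induced by DNA damage, was highest in CD31- B220- cells, the single immediate early member of which this held. Its log2 signals were 9.004, 9.60 and 9.28 in CD31+ B220+ cells, 8.62, 8.61 and 8.34 in CD31+ B220- cells, 10.48, 10.36 and 10.002 in CD31- B220- cells, and 8.19 and 8.28 in HSC. It was 4.13-fold higher in CD31- B220- cells compared with HSC (adjusted p = 5.63e-06), and 3.38-fold lower in CD31+ B220- than in CD31- B220- cells (adjusted p = 1.78e-05). The difference of 1.06 between CD31+ B220+ cells and HSC (adjusted p = 0.00163) turned to -0.54 (adjusted p = 0.114) under median scaling. Gadd45b, the family member induced through NF-kB, had log2 signals of 7.98, 7.86 and 8.13 in CD31+ B220+ cells, 6.78, 7.18 and 6.78 in CD31+ B220- cells, 6.16, 6.16 and 6.64 in CD31- B220- cells, and 5.50 and 5.83 in HSC. The 4 groups did not overlap. It was higher in CD31+ B220+ cells by 2.33 than in HSC (adjusted p = 1.76e-06) and by 1.67 than in CD31- B220- cells (adjusted p = 1.16e-05). Its 0.60 between CD31+ B220- and CD31- B220- cells (adjusted p = 0.0388) lost its call under 11 alternatives, and its 0.65 between CD31- B220- cells and HSC (adjusted p = 0.0259) turned to -0.46 under median scaling.

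Feedback genes on MAP kinases, mRNA and NF-kB had most of their calls in CD31+ B220+ cells. Of 9 tested, 7 were higher and 1 lower in CD31+ B220+ than in CD31+ B220- cells, 8 were higher and 0 lower than in CD31- B220- cells, and 4 were higher and 0 lower in CD31+ B220- than in CD31- B220- cells. At an unadjusted p under 0.05 the counts of 0 became 1 and 0. Their median log2 differences were 1.74, 2.16 and 0.77 in these comparisons, against 0.0044, 0.0192 and 0.0643 for all tested genes. The shares called were 88.9%, 88.9% and 44.4%, against 36.3%, 45.5% and 29.3% of all tested genes. Against HSC the counts higher and lower were 6 and 1 in CD31+ B220+ cells, 0 and 2 in CD31+ B220- cells and 0 and 5 in CD31- B220- cells, or 77.8%, 22.2% and 55.6% of the 9, against 46.4%, 43.7% and 51.0% of all tested genes. Under median scaling they were 2 and 1, 0 and 9, and 0 and 8.

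Dusp2, a nuclear phosphatase of ERK and p38 found in activated lymphocytes, had log2 signals of 13.05, 13.06 and 12.55 in CD31+ B220+ cells. Its values were 10.18, 9.72 and 10.32 in CD31+ B220- cells, 6.75, 5.01 and 6.90 in CD31- B220- cells, where 2 of 3 arrays detected it, and 11.78 and 12.06 in HSC. No groups overlapped. Dusp2 was higher by 6.67 (95% interval 5.81 to 7.52; adjusted p = 1.26e-08) in CD31+ B220+ than in CD31- B220- cells and by 3.85 (adjusted p = 6.89e-06) in CD31+ B220- than in CD31- B220- cells. Against HSC its log2 difference was 0.97 in CD31+ B220+ cells (95% interval 0.01 to 1.92; adjusted p = 0.0895), -1.84 in CD31+ B220- cells (adjusted p = 0.00436; 0.113 with the deposited processed values) and -5.70 in CD31- B220- cells (adjusted p = 2.56e-07). A second Dusp2 probe, detected on 10 arrays, was called higher in CD31+ B220+ cells compared with HSC (1.22, adjusted p = 0.014), so that call rests on the probe chosen.

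Dusp1, which acts on p38 and JNK as well as ERK, ran the other way in CD31+ B220+ cells. Its log2 signals were 8.97, 10.70 and 9.36 in CD31+ B220+ cells, 10.98, 11.07 and 11.20 in CD31+ B220- cells, 10.89, 10.04 and 10.91 in CD31- B220- cells, and 12.86 and 12.53 in HSC. The HSC arrays were above all others. Dusp1 was 8.1-fold lower in CD31+ B220+ cells (adjusted p = 4.79e-05), 3.06-fold lower in CD31+ B220- cells (adjusted p = 0.00636, and 0.0601 without HSC replicate 1) and 4.23-fold lower in CD31- B220- cells (adjusted p = 0.000885) than in HSC. It was also 2.65-fold lower in CD31+ B220+ than in CD31+ B220- cells (adjusted p = 0.00885). Dusp5, a nuclear phosphatase of ERK, had log2 signals of 9.03, 9.64 and 9.14 in CD31+ B220+ cells, 6.32, 6.74 and 7.54 in CD31+ B220- cells, 5.47, 5.72 and 5.25 in CD31- B220- cells, and 7.48 and 7.34 in HSC. It was detected on 2 of 3 CD31- B220- arrays. Dusp5 was higher in CD31+ B220+ cells by 2.40 than in CD31+ B220- cells (adjusted p = 1.65e-05), by 3.79 than in CD31- B220- cells (adjusted p = 1.06e-07) and by 1.86 than in HSC (adjusted p = 0.000275; under median scaling 0.23, adjusted p = 0.499). Dusp6, its cytoplasmic counterpart, had 12.02, 12.81 and 11.97 in CD31+ B220+ cells, 10.17, 10.75 and 10.67 in CD31+ B220- cells, 9.74, 10.47 and 10.90 in CD31- B220- cells, and 10.82 and 10.80 in HSC. The CD31+ B220+ arrays were the highest, by 1.74 over CD31+ B220- cells (adjusted p = 0.000492) and by 1.90 over CD31- B220- cells (adjusted p = 0.000146).

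Zfp36l1 and Zfp36 encode proteins that bind AU-rich elements and speed the decay of short-lived mRNAs. Zfp36l1 had log2 signals of 13.69, 13.75 and 13.44 in CD31+ B220+ cells, 11.09, 10.90 and 11.78 in CD31+ B220- cells, 11.71, 11.37 and 11.33 in CD31- B220- cells, and 11.17 and 11.41 in HSC. It was 5.05-fold higher in CD31+ B220+ cells compared with HSC (adjusted p = 6.24e-06) and 5.16-fold higher than in CD31+ B220- cells (adjusted p = 3.16e-06), while the other 3 groups overlapped. Zfp36 had 12.48, 13.22 and 12.17 in CD31+ B220+ cells, 11.97, 11.81 and 12.09 in CD31+ B220- cells, 11.35, 10.67 and 11.67 in CD31- B220- cells, and 12.33 and 12.51 in HSC. It was lowest in CD31- B220- cells, where it was lower than in HSC (log2 difference -1.19, adjusted p = 0.0069), and it was higher by 1.39 in CD31+ B220+ than in CD31- B220- cells (adjusted p = 0.00118).

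CArG boxes, the sites of serum response factor, lay within 250 bases upstream of a start of 3 of the 34 members with a promoter in the RefSeq table used here (GRCm38.p6), 8.8%, against 1.62% of the 27025 genes in that table. Both strands were searched. The 3 genes were Dusp5, Zfp36 and Egr2, each higher in CD31+ B220+ than in CD31- B220- cells, as were 18 of the 29 tested immediate early members in all. The promoters of Egr1, Egr3, Ier2, Myc, Nfkbiz, Hspa8, Hsp90aa1 and Hsp90ab1 were missing there, so these genes were searched for no motif. The stretches are shown because they carry the boxes, in capitals. Dusp5 (chr19:53528995-53529144, plus strand) and Zfp36 (chr7:28379229-28379378, minus strand) are given as the 150 bases before the start, and the Egr2 sites (chr10:67537484-67537513 and chr10:67537787-67537816, plus strand) belong to different transcript starts.
Dusp5: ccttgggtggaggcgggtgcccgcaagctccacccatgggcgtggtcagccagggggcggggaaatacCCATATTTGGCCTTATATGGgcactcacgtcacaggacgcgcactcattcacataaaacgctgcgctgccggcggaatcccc
Zfp36: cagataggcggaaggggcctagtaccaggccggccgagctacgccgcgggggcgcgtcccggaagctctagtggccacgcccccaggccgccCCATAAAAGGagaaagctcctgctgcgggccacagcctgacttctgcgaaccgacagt
Egr2, first site: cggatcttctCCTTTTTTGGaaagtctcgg
Egr2, second site: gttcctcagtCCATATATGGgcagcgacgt
A match is a description of the letters and shows neither binding nor a cause.

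Nfkbia, Tnfaip3 and Nfkbiz are NF-kB target genes that act back on the pathway. Nfkbia, the inhibitor that holds NF-kB in the cytoplasm, had log2 signals of 11.43, 11.54 and 11.46 in CD31+ B220+ cells, 10.25, 9.94 and 10.02 in CD31+ B220- cells, 8.95, 9.02 and 9.14 in CD31- B220- cells, and 10.03 and 9.38 in HSC. The 3 fractions did not overlap. Nfkbia was higher in CD31+ B220+ cells by 1.77 than in HSC (adjusted p = 1.54e-05), by 1.41 than in CD31+ B220- cells (adjusted p = 6.71e-05) and by 2.44 than in CD31- B220- cells (adjusted p = 1.97e-07), and by 1.03 in CD31+ B220- than in CD31- B220- cells (adjusted p = 0.00107). The difference from HSC was at 0.42 (adjusted p = 0.158) under median scaling. A second Nfkbia probe, detected on 10 arrays, gave 0.31 between CD31+ B220- and CD31- B220- cells (adjusted p = 0.53) and was called in the other 3 comparisons, at 1.06, 1.70 and 2.01. Tnfaip3, a ubiquitin-editing enzyme, had 9.81, 10.22 and 9.01 in CD31+ B220+ cells, 7.99, 7.27 and 8.17 in CD31+ B220- cells, 6.91, 6.30 and 5.84 in CD31- B220- cells, and 7.33 and 6.93 in HSC. The fractions again did not overlap. Tnfaip3 was 5.86-fold higher in CD31+ B220+ cells compared with HSC (adjusted p = 0.00011), 3.67-fold higher than in CD31+ B220- cells (adjusted p = 0.00077) and 10.1-fold higher than in CD31- B220- cells (adjusted p = 2.81e-06). Nfkbiz, a nuclear inhibitor family member that also activates some genes, had 8.96, 9.84 and 9.24 in CD31+ B220+ cells, 8.22, 8.24 and 8.91 in CD31+ B220- cells, 7.94, 7.20 and 7.93 in CD31- B220- cells, and 8.28 and 8.13 in HSC. Its difference of 1.14 between CD31+ B220+ cells and HSC (adjusted p = 0.00872) turned to -0.47 under median scaling and lost its call without HSC replicate 2 (adjusted p = 0.0577), and that of 1.66 from CD31- B220- cells (adjusted p = 0.000248) did not turn.

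Nfkbia and Tnfaip3 were higher together in CD31+ B220+ cells, and the 150 bases before their starts are shown for the NF-kB sites that they hold, in capitals (Nfkbia chr12:55492648-55492797 and Tnfaip3 chr10:19015411-19015560, both minus strand, RefSeq GRCm38.p6).
Nfkbia: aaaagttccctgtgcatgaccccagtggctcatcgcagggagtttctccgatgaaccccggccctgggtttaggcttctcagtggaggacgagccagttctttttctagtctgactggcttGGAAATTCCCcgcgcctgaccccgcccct
Tnfaip3: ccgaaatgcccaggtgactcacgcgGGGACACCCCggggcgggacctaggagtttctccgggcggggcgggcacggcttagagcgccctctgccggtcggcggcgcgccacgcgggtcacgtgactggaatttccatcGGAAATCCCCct
Within 250 bases on either strand, an NF-kB site was found in 11 of 34 members with a promoter, 32.4%, against 8.23% of all genes in the table. Besides Nfkbia and Tnfaip3, Fos, Fosl2 and Hspd1 were called lower in CD31+ B220+ cells than in both other fractions, and Ier3 than in CD31+ B220- cells. Egr2 and Hspa1b were called higher than in both, and Fosb than in CD31- B220- cells. The remaining members with a site were Hspe1, not called, and Hspa1a, not tested. The AP-1 site TGANTCA was found in 2 members, 5.9% against 7.82%, namely Tnfaip3 and Zfp36l1. The CRE, TGACGTCA, the site of CREB, was found in 2, 5.9% against 1.77%, namely Btg2 and Dusp1. TATAAA was found in 6, 17.6% against 14.33%, and CCAAT in 17 of 34, against 37.49% of all genes. No motif was tested for enrichment.

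Of the 8 tested heat shock members, none was higher in a fraction than in HSC by limma's test, and none at an unadjusted p under 0.05 either, while 4 were lower in the CD31+ B220+ fraction (7 under median scaling), 4 in the CD31+ B220- fraction (6) and 1 in the CD31- B220- fraction (4). Of all tested genes 27.3%, 25.6% and 29.9% were called lower in these comparisons, and 19.1%, 18.1% and 21% higher. The 4 of 8 called lower in the first and second fraction lie above those shares, and the 1 of 8 in the third lies below. In either direction 46.4%, 43.7% and 51.0% of all tested genes were called, so only the direction of the first 2 counts departs from the background. Whether so few genes depart by more than chance was not tested. In CD31+ B220+ cells 1 was higher and 4 lower than in CD31- B220- cells, and 1 was higher and 2 lower than in CD31+ B220- cells. Between CD31+ B220- and CD31- B220- cells 2 were lower and none higher. The numbers called in these 3 comparisons, 5, 3 and 2 of 8, stand against 45.5%, 36.3% and 29.3% of all tested genes. Only the first lies above the background, and the other 2 lie near it.

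Hspa1a, Hspa1b, Hspb1 and Dnaja1 were near or below detection, while Hspa8, Hsph1, Dnajb1, Hsp90aa1, Hspd1 and Hspe1 were detected on all 11 arrays. Hspa1a, the inducible Hsp70, was detected on none of the 11 arrays (log2 signals 4.61 to 4.96). Its near-identical neighbour Hspa1b was detected on CD31+ B220+ replicate 3 (6.03) and HSC replicate 2 (5.17), and its excess of 0.70 over CD31+ B220- (adjusted p = 0.0345) and 0.71 over CD31- B220- cells (adjusted p = 0.0266) ended without CD31+ B220+ replicate 3 (adjusted p = 0.148 and 0.121). Hspa1b passed the filter only with that array, so these calls are not independent of the filter. The 250 bases upstream of the pair are 98.8% identical, and signals of such copies are uncertain because probes may not separate them. Hspb1, the small chaperone Hsp27, was detected on HSC replicate 1 alone (5.27). Dnaja1, an Hsp40 co-chaperone, was detected on 4 of 11 arrays, at 5.21 to 5.82, and its F-test gave an adjusted p of 0.178.

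Hspa8, the constitutive Hsc70, differed little between arrays, and the CD31- B220- arrays spanned nearly the whole range. Its log2 signals were 13.22, 13.40 and 13.19 in CD31+ B220+ cells, 13.46, 13.65 and 13.48 in CD31+ B220- cells, 13.66, 13.19 and 13.55 in CD31- B220- cells, and 13.29 and 13.23 in HSC. Its F-test gave an adjusted p of 0.408, and the difference between CD31+ B220+ cells and HSC was 0.01 (95% interval -0.41 to 0.43; adjusted p = 0.972), or -0.66 under median scaling. A second Hspa8 probe gave -1.18 in that comparison (adjusted p = 0.00216), so the probes of this gene disagree. Dnajb1, the Hsp40 that Hsf1 induces strongly, had log2 signals of 11.41, 11.23 and 11.11 in CD31+ B220+ cells, 11.32, 11.14 and 11.19 in CD31+ B220- cells, 12.14, 12.02 and 11.59 in CD31- B220- cells, and 11.85 and 11.89 in HSC. The CD31+ B220+ and CD31+ B220- arrays lay below all others. Dnajb1 was lower in CD31+ B220+ (log2 difference -0.67, adjusted p = 0.00893) and CD31+ B220- (-0.70, adjusted p = 0.0111, and 0.0529 without CD31- B220- replicate 1) than in CD31- B220- cells. Against HSC the differences were -0.62 (adjusted p = 0.0243) and -0.65 (adjusted p = 0.0203), and each lost its call when any 1 of 4 arrays was left out (adjusted p up to 0.0987 and 0.0881).

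Hsph1, the Hsp110 nucleotide exchange factor of Hsp70, had log2 signals of 9.19, 9.04 and 8.51 in CD31+ B220+ cells, 8.81, 9.05 and 9.04 in CD31+ B220- cells, 9.88, 9.56 and 9.88 in CD31- B220- cells, and 10.17 and 10.31 in HSC. The CD31+ B220+ and CD31+ B220- arrays were again the lowest, with log2 differences from HSC of -1.33 (adjusted p = 0.000312) and -1.27 (adjusted p = 0.000513). Hsp90aa1, the inducible Hsp90, had 8.30, 8.16 and 8.59 in CD31+ B220+ cells, 9.41, 9.40 and 9.22 in CD31+ B220- cells, 9.93, 9.94 and 9.47 in CD31- B220- cells, and 10.84 and 9.79 in HSC. The CD31+ B220+ arrays were the lowest, with log2 differences of -1.97 from HSC (adjusted p = 7.56e-05), -0.995 from CD31+ B220- cells (adjusted p = 0.00723) and -1.43 from CD31- B220- cells (adjusted p = 0.000374). A second Hsp90aa1 probe, detected on all 11 arrays, gave 0.22 between CD31+ B220+ cells and HSC (adjusted p = 0.656), so that direction rests on the probe chosen. Its differences from CD31+ B220- cells (-0.25, adjusted p = 0.619) and CD31- B220- cells (-0.95, adjusted p = 0.0304) had the same sign as those above.

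Hspd1 and Hspe1 encode the mitochondrial chaperonin Hsp60 and its lid Hsp10. Hspd1 had log2 signals of 10.43, 10.14 and 10.08 in CD31+ B220+ cells, 11.19, 11.002 and 10.94 in CD31+ B220- cells, 11.40, 11.34 and 10.80 in CD31- B220- cells, and 11.78 and 11.76 in HSC. The CD31+ B220+ arrays were the lowest and the HSC arrays the highest. By this probe Hspd1 was lower than in HSC in all 3 fractions, with log2 differences of -1.55 in CD31+ B220+ cells (adjusted p = 6.47e-05), -0.72 in CD31+ B220- cells (adjusted p = 0.0165) and -0.59 in CD31- B220- cells (adjusted p = 0.0386). The calls in CD31+ B220- and CD31- B220- cells ended without either HSC array (adjusted p = 0.0656 to 0.13). A second Hspd1 probe, detected on all 11 arrays, gave -0.67 (adjusted p = 0.17), 0.67 (adjusted p = 0.185) and 0.94 (adjusted p = 0.0559) in CD31+ B220+, CD31+ B220- and CD31- B220- cells minus HSC, so the direction in the last 2 rests on the probe chosen. Both probes were lower in CD31+ B220+ than in CD31- B220- cells, with log2 differences of -0.96 (adjusted p = 0.00176) and -1.62 (adjusted p = 0.0015). Hspe1 had 9.10, 8.69 and 8.47 in CD31+ B220+ cells, 9.52, 9.37 and 8.94 in CD31+ B220- cells, 9.76, 9.98 and 8.65 in CD31- B220- cells, and 9.37 and 9.29 in HSC. It was called in no comparison (F-test adjusted p = 0.19), and its difference between CD31+ B220+ cells and HSC was -0.58 (95% interval -1.32 to 0.16). The genes lie head to head, so that a single stretch of chromosome 1 (chr1:55088053-55088082, RefSeq GRCm38.p6) is upstream of both, and it is shown for the heat shock element in capitals, read on the plus strand for Hspe1 and on the minus strand for Hspd1.
Hspe1: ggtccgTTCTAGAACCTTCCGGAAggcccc
Hspd1: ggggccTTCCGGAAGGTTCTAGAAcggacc
The element GAANNTTCNNGAA was found upstream of these 2 members of 34, 5.9%, on either strand, against 0.51% of all genes in the table. Its inner pairs TTCNNGAA and GAANNTTC were found in 4 and 8 members, 11.8% against 8.11% and 23.5% against 7.73%. An NF-kB match overlaps an end of the element in both readings.

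**Figure D4:**
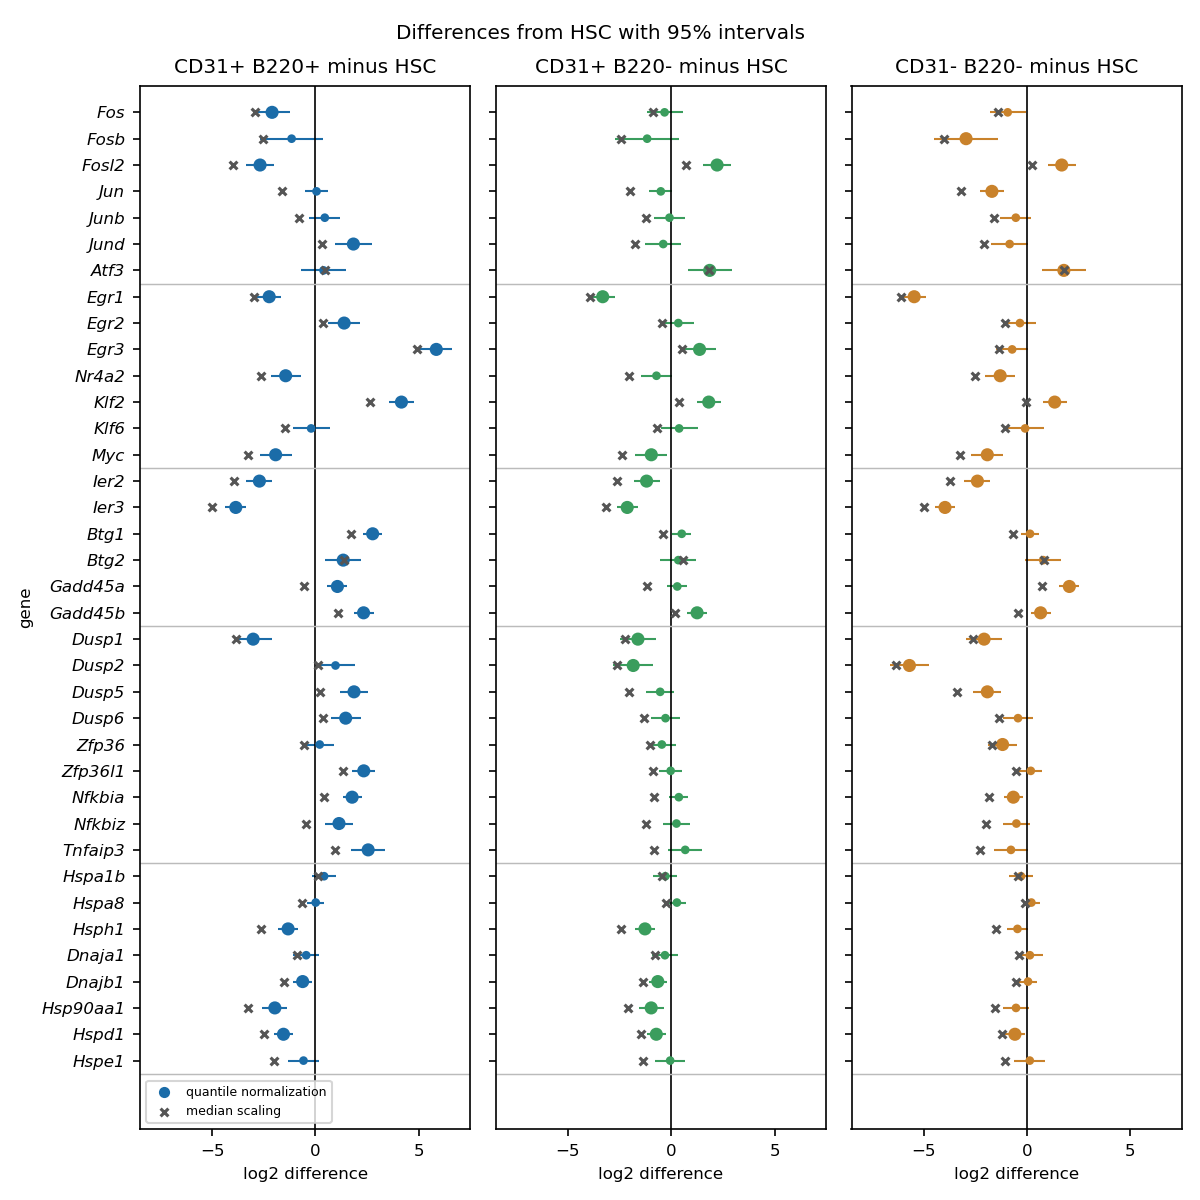
Log2 difference of each tested member in the 3 fractions minus HSC; points are the differences, lines their 95% intervals, large points are called at an adjusted p under 0.05 and crosses give the same difference under median scaling. Egr1, Ier3 and Dusp1 lie below HSC in all 3 fractions, Egr3 and Klf2 lie furthest above it in CD31+ B220+ cells, and most crosses lie below the points (106 of 111), turning the called differences of Gadd45a and Nfkbiz in CD31+ B220+ cells and of Klf2 and Gadd45b in CD31- B220- cells.

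Genes of the same pathways outside the 42 were counted from lists chosen by function. Of 17 other tested NF-kB pathway genes, 15 were higher and 0 lower in CD31+ B220+ than in CD31- B220- cells, 11 and 0 than in CD31+ B220- cells, and 6 and 0 in CD31+ B220- than in CD31- B220- cells, with 0 lower at an unadjusted p under 0.05 as well. Their median log2 differences were 1.05, 1.11 and 0.59. The shares called were 88.2%, 64.7% and 35.3%, against 45.5%, 36.3% and 29.3% of all tested genes. Against HSC 10 were higher and 2 lower in CD31+ B220+ cells, 2 and 4 in CD31+ B220- cells and 2 and 10 in CD31- B220- cells, or 4 and 8, 0 and 14, and 0 and 14 under median scaling. With quantile normalization 70.6%, 35.3% and 70.6% were called, against 46.4%, 43.7% and 51.0% of all tested genes. Nfkbid, a nuclear inhibitor family member of lymphocytes, was higher by 2.77 (adjusted p = 4.06e-06) and Relb, an NF-kB subunit, by 2.58 (adjusted p = 0.000901) in CD31+ B220+ cells compared with HSC.

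Of 35 other tested immediate early genes, 16 were higher and 10 lower in CD31+ B220+ than in CD31- B220- cells, 14 and 9 than in CD31+ B220- cells, and 13 and 2 in CD31+ B220- than in CD31- B220- cells. Against HSC the counts were 10 and 8, 10 and 6, and 9 and 12 in CD31+ B220+, CD31+ B220- and CD31- B220- cells, or 6 and 16, 6 and 18, and 4 and 21 under median scaling. Their numbers called against HSC, 18, 16 and 21 of 35, lie near the 46.4%, 43.7% and 51.0% of all tested genes. Between fractions 74.3%, 65.7% and 42.9% were called, against 45.5%, 36.3% and 29.3% of all tested genes. In CD31+ B220+ cells the chemokine gene Ccl4 was lower than in HSC (log2 difference -5.18, adjusted p = 7.43e-09), and Sgk1, a kinase gene, was higher by 3.75 (adjusted p = 1.73e-07). Ccl3, a chemokine gene close to Ccl4, was higher by 3.45 in CD31+ B220- cells than in HSC (adjusted p = 2.1e-05).

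Of 50 other tested chaperones and heat shock regulators, 3 were higher and 25 lower in CD31+ B220+ cells compared with HSC, 5 and 18 in CD31+ B220- cells, and 8 and 16 in CD31- B220- cells, with medians of -0.64, -0.44 and -0.37; under median scaling the counts were 2 and 47, 0 and 45, and 0 and 40. Between fractions 6 were higher and 14 lower in CD31+ B220+ than in CD31- B220- cells, 2 and 8 than in CD31+ B220- cells, and 4 and 4 in CD31+ B220- than in CD31- B220- cells. The shares called against HSC in either direction, 56.0%, 46.0% and 48.0%, lie near those of all tested genes. By direction, the 25, 18 and 16 of 50 called lower lie above the 27.3%, 25.6% and 29.9% of all tested genes. The 3, 5 and 8 of 50 called higher lie below the 19.1%, 18.1% and 21%. Between fractions 20 of 50, 10 of 50 and 8 of 50 lie below the 45.5%, 36.3% and 29.3% of all tested genes. Bag3, an Hsf1-induced partner of Hsp70, was lower in CD31+ B220+ cells compared with HSC (log2 difference -4.48, adjusted p = 1.41e-08), with detection on some of the CD31+ B220+ arrays only. Of 22 unfolded protein response genes of the endoplasmic reticulum, 8 were higher and 5 lower in CD31+ B220+ cells compared with HSC, 13 and 5 in CD31+ B220- cells and 6 and 4 in CD31- B220- cells, turning to 4 and 12, 4 and 6, and 3 and 12 under median scaling. With quantile normalization 59.1%, 81.8% and 45.5% of these response genes were called, against 46.4%, 43.7% and 51.0% of all tested genes. Trib3, a stress-induced pseudokinase of that response, was at least 10.3-fold lower in CD31+ B220+ cells compared with HSC (adjusted p = 1.36e-06).

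The other AP-1, CREB and Maf genes (12 tested) had 2 higher and 5 lower in CD31+ B220+ cells, 1 and 4 in CD31+ B220- cells and 2 and 5 in CD31- B220- cells against HSC, or 0 and 8, 1 and 9, and 1 and 9 under median scaling. Jdp2, a repressor that pairs with Jun, was at least 3.02-fold lower in CD31+ B220+ cells compared with HSC (adjusted p = 0.000121). The other MAP kinase phosphatases and feedback genes (10 tested) had 2 and 2, 3 and 3, and 2 and 3, or 1 and 6, 1 and 5, and 1 and 5 under median scaling. The numbers called against HSC, 7, 5 and 7 of 12 and 4, 6 and 5 of 10, lie near the shares of all tested genes. Dusp10, a phosphatase of p38 and JNK, was at least 6.32-fold higher in CD31+ B220+ cells compared with HSC (adjusted p = 3.18e-07), and Dusp8, of the same subfamily, was at least 11-fold higher in CD31- B220- cells compared with HSC (adjusted p = 3.99e-08).

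Immediate early members varied more between arrays of a group than genes at large. The median within-group SD was 0.436 on the log2 scale for the 29 immediate early members, 0.272 for the 8 heat shock members and 0.281 for all 11367 tested genes. In CD31+ B220+ replicate 2, 27 of 29 immediate early members lay above their group mean, by a median of 0.37, against 9 of 29 in replicate 1 and 4 of 29 in replicate 3. Of all tested genes 5490 of 11367 lay above the group mean on that array, with a median of -0.01, and of the heat shock members 3 of 8. The same array had the higher neutrophil marker sum of its group, 6041 with 8 of 8 markers detected, against 1220 and 1239 on the other two, and stromal markers at 390, against 230 and 254. The part of those cells in the deviation was not tested. In HSC 23 of 29 members were higher on replicate 1 and 6 on replicate 2, by a median of 0.07 from the mean.

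**Figure D5:**
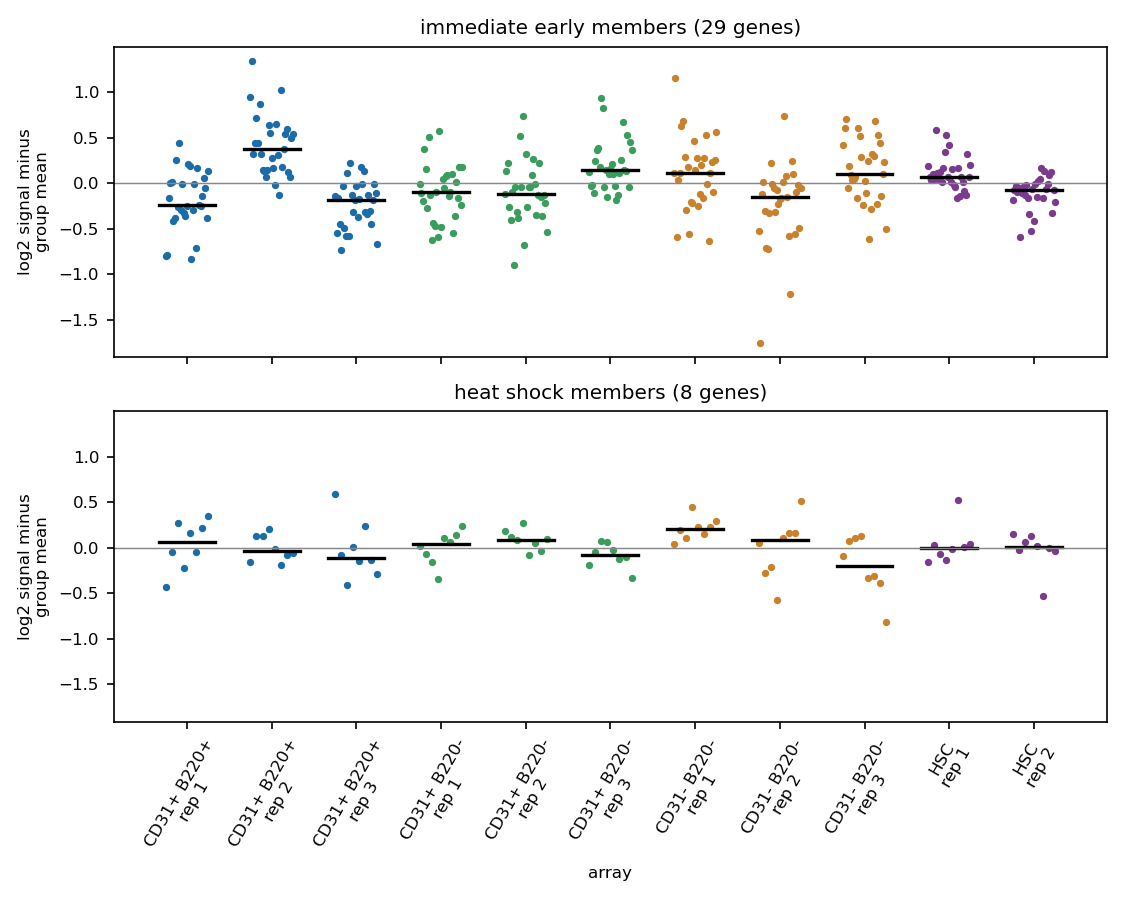
Deviation of each tested member from its group mean on each array, in log2 units; points are genes, bars the medians over immediate early or heat shock members. On CD31+ B220+ replicate 2 the immediate early points lie above 0 for 27 of 29 genes, with a median of 0.37.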

How the data were processed

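Expression was measured on 11 Illumina MouseWG-6 v2 bead arrays. The deposited non-normalized values are bead intensity on a linear scale, with no background taken off. A fraction that the authors deposited for each value carries the heading of a detection p, yet increases with the signal (Spearman 0.987 or more on each of the 11 arrays), so 1 minus it was used as the detection p. The deposited processed values were read as log2, a base that no source used here states. The submitters' processing notes name lumi 1.1.0 without its role.

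Background was removed by normexp with those detection p-values (limma 3.58.1, R 4.3.3, data.table, version 1.17.8), an offset of 16 was added, and log2 values were quantile-normalized. Of 45281 probes 34885 carried a single symbol, for 19057 genes, each represented by its brightest probe on average. The 11367 genes with a detection p under 0.05 on 2 or more arrays entered a linear model over all arrays with a mean per group. The 6 pairwise contrasts (moderated, 2-sided) and the F-test over 4 groups were adjusted by Benjamini-Hochberg over those genes and called under 0.05. The script was tested on simulated data.

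A fold is a bound ("at least") if the dim group lacked detection on all its arrays: each dim array then counts with its own value or the lowest detected value on it, whichever is larger. Levels of different probes are not comparable, and precision is limited by how few arrays there are. Every member is described by its role; of the lists of other pathway genes, examples were taken from the 2 largest called differences in each direction against HSC. Members and lists were chosen with earlier results of these data known. Promoters and motifs come from RefSeq (GRCm38.p6), read with Python 3.11.15 and pandas 2.3.3; figures were drawn with matplotlib 3.10.9. Alternatives were the background correction, scaling, offset, filter, choice of probe, samples in the fit, replicate block and each array left out. The chip could not be used as a block, as the files used here do not name it.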

Additional observations from a re-analysis of the deposited data

How the results depend on the processing

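Median scaling was the setting that changed most. Against the quantile-normalized counts, members called went to 26 in CD31+ B220- cells minus HSC (1 higher, 25 lower) and 29 in CD31- B220- cells minus HSC (3 higher, 26 lower), and stood at 26 in CD31+ B220+ cells minus HSC. Genes called went to 8480 (757 higher, 7723 lower) in CD31+ B220+ cells minus HSC and 8331 (883 higher, 7448 lower) in CD31+ B220- cells minus HSC, and to 3295 (1196 higher, 2099 lower) in CD31+ B220+ minus CD31+ B220- cells. Of the genes followed singly it turned Jun (-1.60), Junb (-0.81), Hspa8 (-0.66) and Gadd45a (-0.54) in CD31+ B220+ cells minus HSC, Tnfaip3 (-0.82) and Gadd45a (-1.19) in CD31+ B220- cells minus HSC, and Klf2 (-0.061), Btg1 (-0.68) and Gadd45b (-0.46) in CD31- B220- cells minus HSC. The cause was not tested. No other alternative turned a direction among these. With 1 array left out, 1518 of the single-gene results kept their direction and side of the threshold, 46 lost their call, 20 gained one and 0 turned; under the other alternatives these were 1504, 31, 34 and 9. Leaving out 1 array gave 22 to 27, 9 to 15, 14 to 19, 22 to 27, 24 to 28 and 12 to 18 members called in CD31+ B220+, CD31+ B220- and CD31- B220- cells minus HSC, CD31+ B220+ minus CD31+ B220-, CD31+ B220+ minus CD31- B220- and CD31+ B220- minus CD31- B220- cells, and 29 to 32 by the F-test. The count of 9 came without HSC replicate 1; a lone HSC array is assumed to vary like the other groups. Among all genes the ranges were 3852 to 5448, 3416 to 5143, 4417 to 5823, 3388 to 4253, 4621 to 5185, 2632 to 3582 and 7016 to 8014. Replicate numbers were not taken to pair the samples. Deviations of same-numbered arrays correlated at -0.0906 to 0.203, which in groups of 2 or 3 arrays cannot show whether samples were paired. With a replicate block the members called were 26, 15, 16, 26, 27 and 13 in the same order and 31 by the F-test. Under the block Fosb in CD31+ B220+ minus CD31- B220- cells (1.80, adjusted p = 0.0539) and Gadd45b in CD31- B220- cells minus HSC (0.60, adjusted p = 0.0514) lost their calls. The chip as a block was not run, because the files used here do not name it.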
